A study of Mus musculus with 2 samples.

Results

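The genes of the microtubule motors were examined in dorsal striatum RNA of mice trained to self-administer cocaine intravenously with long access. They were chosen by symbol, as the kinesins (Kif), the kinesin-associated protein Kifap3, the kinesin light chains (Klc), the cytoplasmic dynein chains (Dync1, Dync2, Dynl) and dynactin (Dctn1 to Dctn6). The rule matched 66 of 32531 gene symbols, of which 45 were kinesin or light chain genes and 21 dynein or dynactin genes. The group was proposed after Kif5a had been seen to be lower in these same libraries, so the values of Kif5a are a description and carry no weight as a finding. The groups are labelled by whether cocaine intake was escalating or nonescalating, and each gave 1 RNA-seq library. Mice of both groups carried the Drd1-TRAP transgene (line CP73), a Drd1 BAC construct that tags the ribosomal protein Rpl10a with EGFP in cells expressing the dopamine receptor Drd1, and came from FVB/N-Swiss Webster stock bred to C57BL/6 over 9 generations or more. Both libraries were input, the total RNA of the dissected tissue before any ribosome purification, so the tag selects no cells here. The sources used here give neither the age of the mice nor how many were pooled, if any, into a library.

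Kinesins and cytoplasmic dynein are ATP-driven motors that walk along microtubules, for the most part in opposite directions. In axons and dendrites most kinesins carry vesicles, mitochondria and RNA granules outward, dynein carries endosomes and spent organelles back to the cell body, and dynactin couples dynein to its cargo and makes it processive. Conventional kinesin (kinesin-1) is built from a pair of heavy chains encoded by Kif5a, Kif5b or Kif5c, which hold the motor, and a pair of light chains encoded by the Klc genes, which bind cargo. Projection neurons of the striatum send long axons to the pallidum and midbrain and depend on both directions of transport.

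Reads assigned to genes numbered 9548358 in the escalating library, against 9376097 in the nonescalating one. With 1 library per group no test between the groups is possible, and each difference below compares these libraries and not the conditions. Levels are CPM, counts per 1000000 reads of library size after scaling by TMM, a method that centres the ratios of most genes near 1. Each ratio is the escalating over the nonescalating level, with an exact 95% interval (Clopper-Pearson) that covers counting error only. Genes whose counts in both libraries summed to 50 or more were taken as measured. A measured gene was called lower or higher when it differed by at least 1.5-fold and its interval excluded 1. Reads of bulk tissue cannot tell fewer cells of a type apart from less RNA per cell.

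Of the 66 motor genes 44 were measured, 22 had fewer than 50 counts, and 2 of these, Kif12 and Kif2b, had none in either library. The kinesin-1 heavy chains Kif5b and Kif5c, and Kif5a, stood lower in the escalating library, while the light chains Klc1 and Klc2 stood higher. Among the 44 measured genes 6 were called lower (Kif5a, Kif5b, Kif5c, Kif1c, Kif21b and Kif11) and 3 higher (Klc1, Klc2 and Dync1i1). Over all 12213 measured genes 17.1% were called lower and 9.33% higher, so the shares of motor genes called were not above those of genes at large. The median log2 ratio was 0.15 for the motor genes and 0.02 for all measured genes. By the interval alone, 9 motor genes lay below 1 and 21 above 1, where the same was true of 29.4% and 27.2% of all measured genes. The 9 below 1 were all kinesins. Of the 18 measured dynein and dynactin genes 13 lay above 1 and 0 below. Scaled to total reads, which put the median of all genes at 0.38, 4 motor genes were called lower and 19 higher, against 9.41% and 31.5% of all measured genes.

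**Figure D1:**
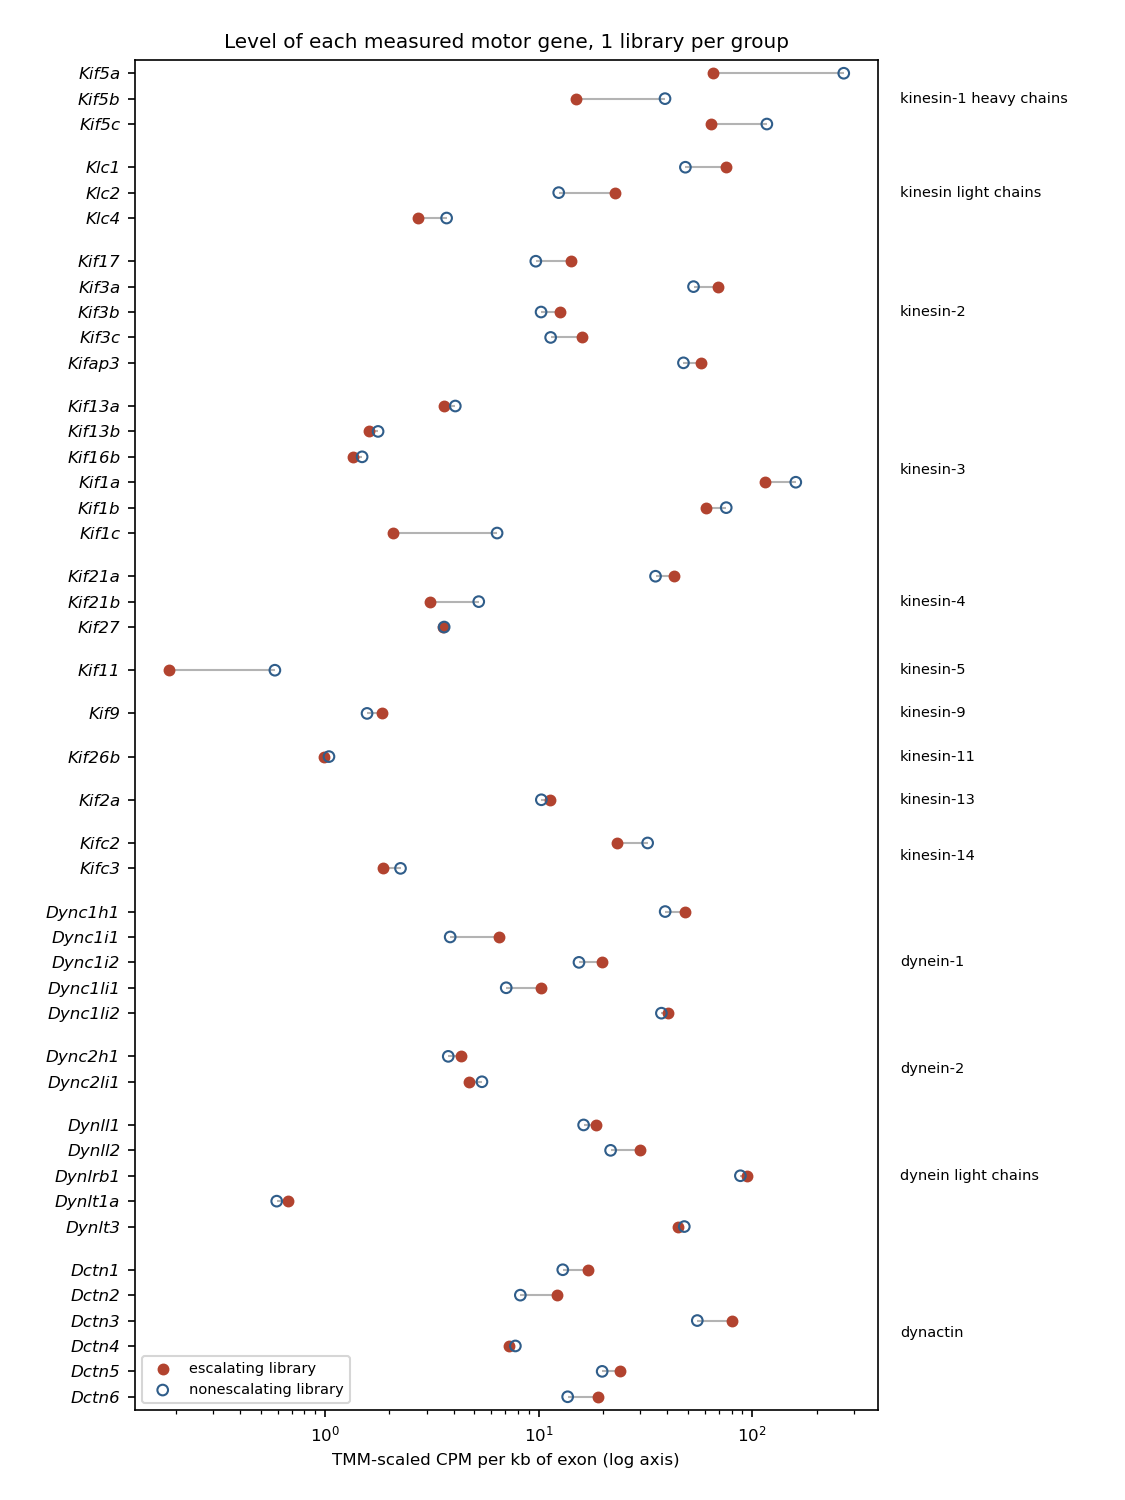
Level of each of the 44 measured motor genes in the escalating library (filled) and the nonescalating library (open), as TMM-scaled CPM per kb of exon on a log axis, grouped by role. Kif5a is the highest of all motor genes in the nonescalating library, at 268, and stands at 65.8 in the escalating library, and 15 of the 18 dynein and dynactin genes lie to the right in the escalating library.

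The heavy chain genes were read singly. Kif5a, which encodes a heavy chain made mainly in neurons (chromosome 10, 127225696 to 127263348, minus strand, mm10), had 4975 escalating and 15511 nonescalating counts, or 460 and 1875 CPM. It was 4.08-fold lower in the escalating library (3.95 to 4.21). Kif5c, the other neuron-enriched heavy chain (chromosome 2, 49619298 to 49774778, plus strand), had 4959 escalating and 6919 nonescalating counts, or 458 and 836 CPM. It was 1.82-fold lower (1.76 to 1.89), a ratio that was no longer called with library sizes set to total reads (log2 ratio -0.51). Kif5b, the heavy chain found in nearly all cell types (chromosome 18, 6201002 to 6242174, minus strand), had 1288 escalating and 2580 nonescalating counts, or 119 and 312 CPM, and was 2.62-fold lower (2.45 to 2.80). Kif5b and Kif5c thus lay on the same side of 1, with Kif5b the farther of the pair and no overlap of their intervals.

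Shares of the heavy chain reads do not depend on how the libraries are scaled; since they turn on Kif5a, they are a description. Kif5a made up 44.3% of Kif5 counts in the escalating library (43.4 to 45.3), against 62.0% in the nonescalating one (61.4 to 62.6). Kif5c made up 44.2% in the escalating library (43.3 to 45.1), against 27.7% in the nonescalating one (27.1 to 28.2). Kif5b made up 11.5% in the escalating library (10.9 to 12.1), against 10.3% in the nonescalating one (9.94 to 10.7). Kif5a and Kif5c therefore had nearly equal reads in the escalating library, whereas in the nonescalating library Kif5a had 2.24 counts for each of Kif5c. Between the other heavy chains, Kif5b had 0.260 counts for each of Kif5c in the escalating library, against 0.373 in the nonescalating one, which is 1.44-fold lower (approximate 95% interval from the log odds, 1.33 to 1.55). Together the heavy chains took 14.7% of all motor gene counts in the escalating library (14.4 to 14.9), against 33.1% in the nonescalating one (32.7 to 33.4).

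Among the light chains, which link kinesin-1 to its cargo, Klc1 and Klc2 lay on the other side of 1. Klc1, the main neuronal light chain (chromosome 12, 111758849 to 111807844, plus strand), had 3308 escalating and 1639 nonescalating counts, or 306 and 198 CPM. It was higher by 1.54-fold (1.45 to 1.64), just past the threshold, and was no longer called when the median of pan-neuronal genes was set to 0 (log2 ratio 0.37). Klc2, a second light chain of brain (chromosome 19, 5107746 to 5118560, minus strand), had 1017 escalating and 425 nonescalating counts and was 1.83-fold higher (1.63 to 2.05). Klc4 had 70 escalating and 73 nonescalating counts, and its log2 ratio of -0.45 had an interval of -0.94 to 0.05 that included 0; with the pan-neuronal median at 0 it was called lower (-0.70). Klc3, with 13 and 6 counts, was not measured. Per kb of exon, the heavy chains summed to 145 CPM per kb in the escalating library, against 424 in the nonescalating one, and the light chains to 101 and 65.1. Kif5b and Kif5c together had 1.42 counts for each light chain count in the escalating library, against 4.43 in the nonescalating one, which is 3.13-fold lower whatever the scaling (approximate 95% interval from the log odds, 2.94 to 3.32). With Kif5a added, whose value led to the choice of these genes, the same ratio was 2.55 in the escalating library, against 11.7 in the nonescalating one, given as a description.

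**Figure D2:**
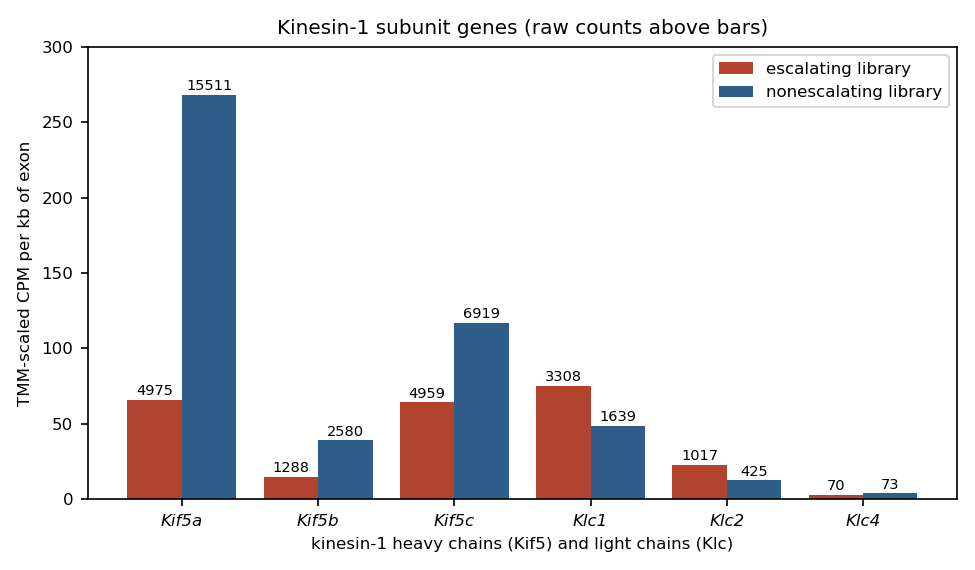
TMM-scaled CPM per kb of exon of the kinesin-1 heavy chain genes (Kif5a, Kif5b, Kif5c) and light chain genes (Klc1, Klc2, Klc4), escalating library left of nonescalating library, with the raw counts printed above each bar. The heavy chain bars are shorter in the escalating library and the Klc1 and Klc2 bars taller, and there is 1 library per bar, so no error bar is drawn.

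The start regions of motor genes that hold a cAMP response element are shown because they belong to kinesin-1 partners on opposite sides of 1, Kif5c and Klc1, and to Kif17 and Dctn3, which had log2 ratios of 0.54 each. Promoter sequences (RefSeq, GRCm38.p6, 250 bases before to 50 after the start) were matched for 50 of the 66 genes. The element TGACGTCA, a palindrome searched on both strands and the site known to bind CREB, was found in 5 of 57 motor gene promoters and in 1.79% of all 32851 promoters. Those of Kif5c, Klc1, Kif17 and Dctn3 follow, 250 bases before the start, 5′ to 3′ on the gene's strand, with the element in capitals.
Kif5c (chr2:49619036-49619285, plus strand): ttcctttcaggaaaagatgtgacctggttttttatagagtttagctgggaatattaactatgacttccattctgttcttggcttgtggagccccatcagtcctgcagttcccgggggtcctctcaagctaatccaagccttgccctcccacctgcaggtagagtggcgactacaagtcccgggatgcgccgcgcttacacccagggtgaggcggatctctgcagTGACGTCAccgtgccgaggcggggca
Klc1 (chr12:111758618-111758867, plus strand): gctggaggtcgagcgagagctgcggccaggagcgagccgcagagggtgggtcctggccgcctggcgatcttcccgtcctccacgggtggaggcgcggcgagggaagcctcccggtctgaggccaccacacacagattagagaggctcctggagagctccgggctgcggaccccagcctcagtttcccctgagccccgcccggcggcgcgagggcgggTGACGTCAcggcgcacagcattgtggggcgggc
Kif17 (chr4:138262001-138262250, plus strand): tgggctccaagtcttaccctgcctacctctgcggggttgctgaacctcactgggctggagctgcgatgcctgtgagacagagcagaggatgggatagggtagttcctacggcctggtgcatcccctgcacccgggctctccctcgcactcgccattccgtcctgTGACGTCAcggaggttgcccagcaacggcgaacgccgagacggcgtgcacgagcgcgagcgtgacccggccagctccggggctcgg
Dctn3 (chr4:41723164-41723413, minus strand): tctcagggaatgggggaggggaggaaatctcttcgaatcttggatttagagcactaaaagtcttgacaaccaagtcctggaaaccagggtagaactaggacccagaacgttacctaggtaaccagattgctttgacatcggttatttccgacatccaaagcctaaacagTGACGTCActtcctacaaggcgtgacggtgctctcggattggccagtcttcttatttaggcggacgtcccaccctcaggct
The first base of the element lay 86 bases before the start in Kif17, 81 in Dctn3, 33 in Klc1 and 26 in Kif5c. In Kif18a, the remaining gene, the element lay after the start. The GC box GGGCGG was found in 38 of the 57 promoters, against 35.7% of all promoters, and the TATA box TATAAA in 5 of 57, against 13.6%; the letters of the 3 motifs cannot overlap. A match says only that the letters are there.

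Kinesin-2 drives intraflagellar transport in cilia and carries vesicles in axons and dendrites. With TMM its 5 genes had intervals above 1, as did 27.2% of all measured genes, and none reached the 1.5-fold threshold. With total reads all 5 were called higher, where 31.5% of all measured genes were too. Kif3a, which pairs with Kif3b or Kif3c, had 2673 escalating and 1576 nonescalating counts and a ratio of 1.30 (1.22 to 1.38). Its partners Kif3b and Kif3c stood at 1.22-fold (1.09 to 1.38) and 1.39-fold (1.27 to 1.53), and Kifap3, the adaptor of the complex, at 1.21-fold (1.13 to 1.29). Kif17, a homodimer known for carrying the NMDA receptor subunit Grin2b along dendrites, had 700 escalating and 368 nonescalating counts and a ratio of 1.45 (1.28 to 1.65). The pan-neuronal marker genes had a median log2 ratio of 0.25, and the kinesin-2 median of 0.37 became 0.12 when that median was set to 0. Kif3c shares exonic bases with a gene on the opposite strand, and its count is uncertain because no source used here names the strand setting.

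Kinesin-3 carries synaptic vesicle precursors and dense-core vesicles, and its 6 measured genes all had ratios below 1, with a median log2 ratio of -0.24 that turned to 0.12 when counts were scaled to total reads. Kif1a, the axonal vesicle motor, had 11566 escalating and 12347 nonescalating counts, or 1069 and 1492 CPM, and a log2 ratio of -0.48 (-0.52 to -0.44). Kif1b, whose isoforms carry mitochondria and synaptic vesicle precursors, had 11618 escalating and 11010 nonescalating counts and a log2 ratio of -0.31 (-0.35 to -0.27). Neither reached 1.5-fold, although Kif1a was called lower with the pan-neuronal median at 0 (-0.74). Kif1c, a motor expressed widely outside neurons (chromosome 11, 70700548 to 70731964, plus strand), had 164 escalating and 385 nonescalating counts. It was 3.07-fold lower (2.55 to 3.71) and the farthest from 1 of the 6. Kif13a, Kif13b and Kif16b, which move endosomal cargo, had log2 ratios between -0.18 and -0.14 with intervals that included 0.

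The remaining kinesins of interphase cells were mixed. Kif21a, a kinesin-4 that acts on microtubule growth in neurons, had 3007 escalating and 1890 nonescalating counts and a log2 ratio of 0.28 (0.20 to 0.37). Its relative Kif21b (chromosome 1, 136131389 to 136177998, plus strand) had 407 escalating and 529 nonescalating counts and was 1.70-fold lower (1.49 to 1.94), which was not called with total-read scaling (-0.40). The pair thus lay on opposite sides of 1. Kifc2, a minus-end-directed kinesin-14 of brain, had 986 escalating and 1054 nonescalating counts and a log2 ratio of -0.48 (-0.61 to -0.36), short of the threshold. Kif2a, a kinesin-13 that depolymerises microtubule ends and trims axon branches, had 781 escalating and 545 nonescalating counts and a log2 ratio of 0.13 (-0.03 to 0.29). Kifc3, Kif26b, Kif27 and Kif9 also had intervals that included 1.

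The genes of the cytoplasmic dynein core had ratios above 1, of which 1 was called. Dync1h1, the motor heavy chain (chromosome 12, 110601452 to 110666945, plus strand), had 8251 escalating and 5070 nonescalating counts, or 763 and 613 CPM, and a ratio of 1.24 (1.20 to 1.29). Dync1i1, the intermediate chain found mainly in neurons (chromosome 6, 5725639 to 6028039, plus strand), had 252 escalating and 114 nonescalating counts. It was 1.69-fold higher (1.35 to 2.13) and the sole dynein gene called, though not with the pan-neuronal median at 0 (log2 ratio 0.50). Dync1i2, the widely expressed intermediate chain, stood at 1.28-fold (1.18 to 1.38), and the light intermediate chains Dync1li1 and Dync1li2, which hold cargo adaptors, at 1.45-fold (1.24 to 1.72) and 1.07-fold (1.01 to 1.13). All 5 genes of the core complex had intervals above 1 with TMM, against 27.2% of all measured genes. With total reads 4 of the 5 were called higher, against 31.5% of all measured genes. With the pan-neuronal median at 0 none was, against 3.13%, and Dync1li2 turned to a log2 ratio of -0.16 with its interval below 0.

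Among dynein's small light chains and the dynein of cilia no gene was called. Dynll2 had 881 escalating and 492 nonescalating counts and a ratio of 1.37 (1.22 to 1.53), and Dynll1, the LC8 hub protein that binds many partners besides dynein, had a ratio of 1.14 (1.02 to 1.28). Dynlrb1 and Dynlt3 had log2 ratios of 0.10 and -0.10 with intervals that included 0. Dynlt1a, Dynlt1b and Dynlt1f are near-identical copies among which reads cannot be placed with certainty; they had 31, 2 and 3 counts in the escalating library, against 21, 2 and 6 in the nonescalating one. Dync2h1, the motor of retrograde transport in cilia, had 763 escalating and 511 nonescalating counts and a log2 ratio of 0.19 (0.03 to 0.36). Its partner Dync2li1 had 96 escalating and 84 nonescalating counts and a log2 ratio of -0.20 (-0.63 to 0.25).

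Dynactin, the cofactor of dynein, had 5 of 6 genes with intervals above 1 and none called with TMM. Over all measured genes 27.2% had intervals above 1. Total reads gave 5 called higher, against 31.5% of all measured genes. Dctn1, which encodes the p150Glued arm that touches the microtubule, had 1196 escalating and 699 nonescalating counts and a ratio of 1.31 (1.19 to 1.44). Dctn2, the dynamitin subunit of the shoulder, had 630 escalating and 326 nonescalating counts and a ratio of 1.48 (1.29 to 1.69), just short of the threshold. Dctn3, which also belongs to the shoulder, stood at 1.46-fold (1.30 to 1.63), and Dctn5 and Dctn6, of the pointed-end complex, at 1.21-fold (1.07 to 1.37) and 1.38-fold (1.20 to 1.59). Dctn4, also of the pointed end, was the exception, with 915 escalating and 747 nonescalating counts and a log2 ratio of -0.09 (-0.24 to 0.05). The dynactin median log2 ratio of 0.43 was 0.17 with the pan-neuronal median at 0 and 0.79 with total reads.

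**Figure D3:**
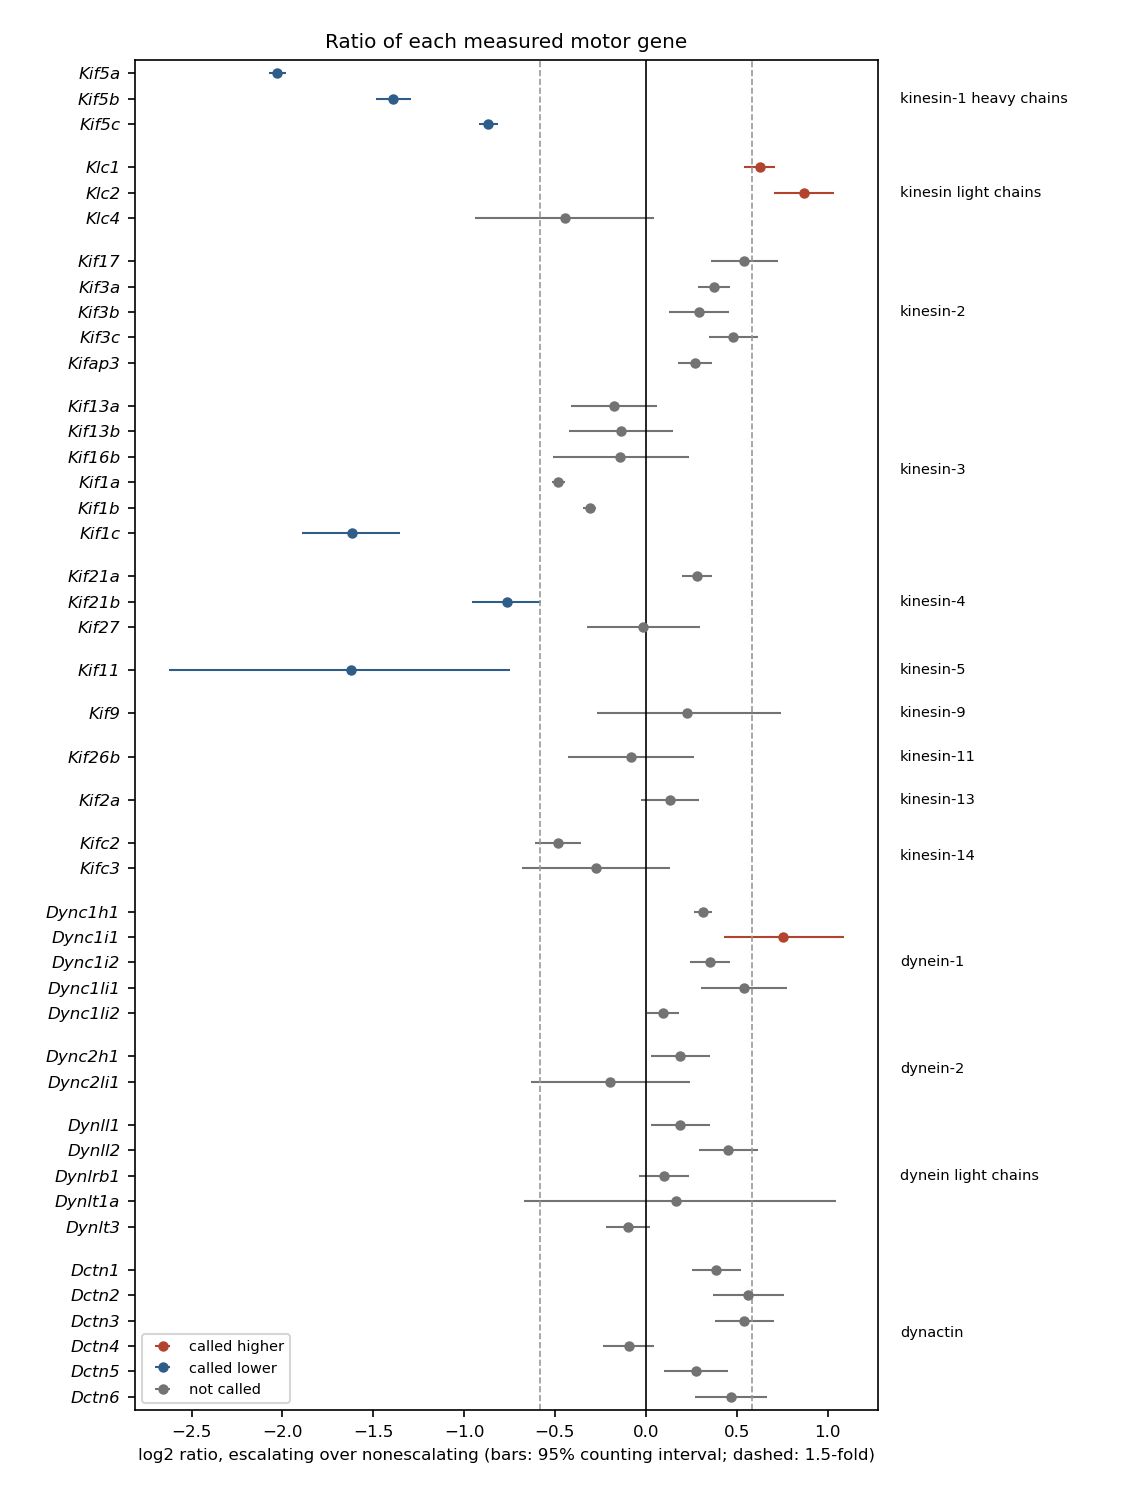
Log2 ratio of the escalating over the nonescalating library for the 44 measured motor genes, grouped by role, with bars for the 95% counting interval and dashed lines at 1.5-fold in each direction. The 3 Kif5 genes lie left of the lower line, at -2.03, -1.39 and -0.87, while Klc1, Klc2 and Dync1i1 lie right of the upper line.

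Kif5a and Dctn2 are neighbours on chromosome 10. Their annotated starts have 3019 bases between them, they are transcribed away from each other, and no other counted gene lies between them. Kif5a was 4.08-fold lower in the escalating library and Dctn2, which was not called, had a ratio of 1.48. The ratio of Kif5a to Dctn2 counts was 7.90 in the escalating library, against 47.6 in the nonescalating one. As the value of Kif5a led to the choice of these genes, this ratio is given as a description.

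Kinesins of cell division were scarce. These 12 genes, such as Kif4, Kif11, Kif15, Kif18b, Kif20b and Kif23, act in the spindle or in cytokinesis, and they were grouped by that textbook role after their values had been seen. They summed to 91 counts in the escalating library (exact Poisson interval 73.3 to 112), against 180 in the nonescalating one (155 to 208). Kif11, the bipolar spindle motor and the sole one of them measured, had 15 escalating and 36 nonescalating counts and was 3.14-fold lower (1.68 to 6.17). Without Kif11 the sum was 76 counts in the escalating library, against 144 in the nonescalating one. Kif18b had 0 escalating and 15 nonescalating counts. Kif4 had 1 escalating and 20 nonescalating counts, and shares exonic bases with Pdzd11. By contrast Kif23 with 17 and 14, Kif20a with 14 and 12 and Kif22 with 25 and 17 had intervals that included 1. Kif11 passed the minimum of 50 counts, with 51, mainly through the nonescalating library. Beside these kinesins, the 16 genes of the dividing-cell marker list summed to 29.2 escalating and 67.6 nonescalating CPM, with no gene at 0 in either library. Their part in the result was not tested.

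**Figure D4:**
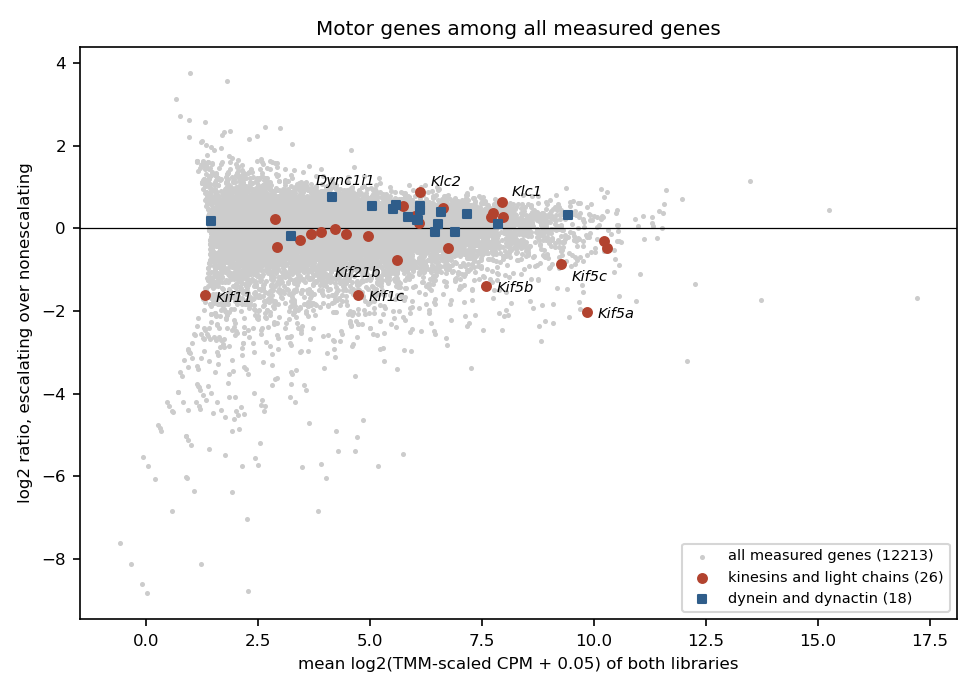
Log2 ratio against mean log2 level for all 12213 measured genes (grey), the 26 measured kinesin and light chain genes (red circles) and the 18 measured dynein and dynactin genes (blue squares). Kif5a, Kif5b and Kif5c lie at -2.03, -1.39 and -0.87, and the dynein and dynactin genes lie between -0.20 and 0.75.

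Markers of other cells moved with the libraries, and their calls stand beside 17.1% lower and 9.33% higher over all measured genes. All 18 microglial markers were called lower, with sums of 40.9 escalating and 1926 nonescalating CPM, and in the escalating library Trem2 and Gpr34 were at 0 counts. All 16 astrocyte markers were lower, with a median log2 ratio of -1.61 and sums of 2063 escalating and 15134 nonescalating CPM. Of those sums Slc1a2 alone gave 1421 and 13256 CPM. Also lower were 11 of 15 markers of mature oligodendrocytes (1938 and 4679 CPM) and 11 of 13 endothelial markers (135 and 257 CPM). Of 10 markers of oligodendrocyte precursors 4 were lower and 1 higher (167 and 241 CPM). Of 4 measured ependymal markers 1 was lower and 1 higher (29.0 and 27.9 CPM over all 16, with Dnah12 at 0 in the escalating library). Neuronal markers differed in this. Of 18 pan-neuronal genes 0 were called lower and 4 higher, with sums of 11669 escalating and 10541.6 nonescalating CPM. Of 16 striatal projection neuron genes 3 were lower and 1 higher, with a median log2 ratio of 0.04, and 0 of the 16 were without counts in either library. Of 9 measured cortical excitatory genes 5 were higher and 2 lower (550 and 520 CPM), and of 9 interneuron genes 1 was higher and 1 lower (242 and 243 CPM). Kif5b and Kif1c, which glia and vessels also express, were lower alongside the glial markers, and the part of those cells in their ratios was not tested. Kif5a was lower in the escalating library while no pan-neuronal marker was called lower.

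Transcript length moved little with the ratio over all genes. Over 11317 measured genes with an annotated length, Spearman's rho of the log2 ratio with exon length was -0.07, and over the 44 motor genes it was -0.38; genes are not independent replicates, and all share these libraries. The exons of Kif5a, Kif5b and Kif5c span 6990, 7981 and 7142 bases, and the 2262 genes of 5763 to 8243 bases had a median log2 ratio of -0.01.

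Partners of the motors were read from lists. Over all measured genes 17.1% were called lower and 9.33% higher, and the list counts are not read as a result. Of 49 measured adaptors and regulators of kinesin and dynein 4 were called lower and 2 higher. Their median log2 ratio of 0.08 was -0.17 with the pan-neuronal median at 0. Trak2, which ties mitochondria to kinesin-1 and dynein, had 923 escalating and 1522 nonescalating counts and was 2.16-fold lower (1.99 to 2.34). Mapk8ip2, a JNK scaffold that binds kinesin light chains, had 867 escalating and 1104 nonescalating counts and was 1.67-fold lower (1.52 to 1.82). Hap1, the huntingtin-associated protein that binds kinesin light chain and dynactin, had 465 escalating and 210 nonescalating counts and was higher, by 0.76 on the log2 scale. Of 23 measured intraflagellar transport genes, the cargo trains of kinesin-2 and dynein-2, 0 were lower and 1 higher, with a median of 0.32; Traf3ip1 was 1.79-fold higher (1.42 to 2.26), and Ift81 and Hspb11 stood at 1.49-fold (1.23 to 1.81) and 1.82-fold (0.989 to 3.49).

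Other parts of the cytoskeleton gave a frame for the motors. Of 33 measured tubulin, neurofilament and microtubule-associated protein genes 3 were lower and 4 higher, against 17.1% and 9.33% of all measured genes. Their median log2 ratio was 0.26, beside 0.25 for the pan-neuronal list. The lists share Map2, Stmn2 and Stmn3, so these medians are not independent. Dclk1, a microtubule-binding kinase, had 17213 escalating and 6802 nonescalating counts and was 1.93-fold higher (1.88 to 1.99), while Dcx, the related protein of young neurons, was 2.10-fold lower (1.87 to 2.35) and the tubulin Tubb2b 2.43-fold lower (1.81 to 3.29). Of 19 measured myosins, the motors of actin filaments, 5 were lower and 1 higher, with a median of -0.16 that was 0.20 with total reads. Myo1f, a myosin of leukocytes, had 4 escalating and 53 nonescalating counts and was 17.3-fold lower (6.38 to 65.9), Myo6, which walks to the minus end of actin, was 3.28-fold lower (2.97 to 3.64), and Myo10, the filopodial myosin, was 2.14-fold lower (1.90 to 2.42). No test sets these lists against the motor genes.

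**Figure D5:**
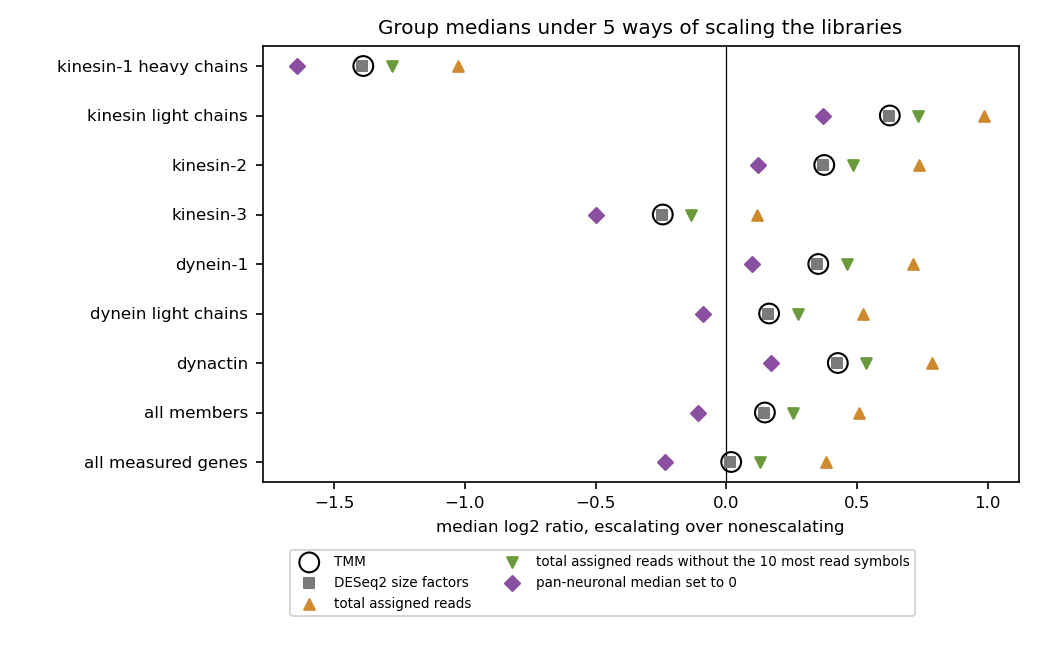
Median log2 ratio of the escalating over the nonescalating library for groups of motor genes under 5 ways of scaling the libraries, with all motor genes and all measured genes at the bottom. The median of the kinesin-1 heavy chains stays left of 0 under all 5, between -1.64 and -1.03. That of the 3 measured kinesin light chains stays right of 0, between 0.37 and 0.99, although Klc4 lay below 0 under each. The medians of kinesin-3 and the dynein light chains cross 0.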

How the data were processed

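Total RNA of dissected dorsal striatum was sequenced as 1 library per group, and groups were taken from the sample titles. Per the submitters' processing notes, the authors used STAR 2.0.0e, mm10 and HTSeq; for HTSeq, neither version, strand setting nor annotation is given in the sources used here. Each deposited file lists raw counts by gene symbol. Reads given to no gene were left out: reads in no annotated gene were 28.6% of listed reads in the escalating library, against 18.1% in the nonescalating one, those overlapping several genes 8.06% and 18.9%, and those with several alignments 9.53% and 7.78%. The share of the 10 most read symbols was 20.0% (escalating) and 32.8% (nonescalating) of assigned reads.

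Library sizes were scaled by TMM, with factors of 1.13 (escalating) and 0.882 (nonescalating) (edgeR 4.0.16, R 4.3.3). Log2 ratios carry a pseudocount of 0.5, and folds do not. No count model was tested, since there is 1 library per group. A count of 0 allows up to 3 counts, or 0.277 escalating and 0.363 nonescalating CPM. Intervals and floors cover counting error only. Exon lengths, coordinates and overlaps came from GENCODE M21, on the same build as mm10, which matched all 66 motor genes and 23161 symbols; 9 of the 44 measured motor genes share an exonic base with another counted gene. Intervals and sums were made in Python 3.11.15 (scipy 1.17.1, numpy 2.4.6, pandas 2.3.3) and plots in matplotlib 3.10.9. The calls were tested on simulated data. The motor genes and all lists were chosen with earlier results of these data known. Named genes are the members and, of each list described, the 3 measured genes with the largest ratio. Named besides are Cenpe, Prc1, genes at 0 counts and genes shared between lists. The alternatives tried were 4 scalings besides TMM (1 by size factors of DESeq2 1.42.0), filters, pseudocount, thresholds and the removal of overlapping genes.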

Additional observations from a re-analysis of the deposited data

How the results depend on the processing

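The directions of Kif5a, Kif5b, Kif5c, Klc1, Klc2, Kif1c, Kif21b, Kif11 and Dync1i1 were kept under every alternative that gave them a value, and no called ratio changed sign. Scaled to total reads, the log2 ratios of Kif5a, Kif5b and Kif5c were -1.67, -1.03 and -0.51, without the 10 most read symbols in the totals -1.92, -1.28 and -0.76, and with the pan-neuronal median at 0 -2.28, -1.64 and -1.12. Total reads gave 19 motor genes higher and 4 lower (background 31.5% and 9.41%) and a median of 0.51, beside 3 and 6 and 0.15 with TMM; the median over all measured genes moved by the same step, to 0.38. Of the 44 measured genes 10 changed sign under it, none of them called with TMM. Without the 10 most read symbols 8 were higher (all measured genes 14.1%). With the pan-neuronal median at 0 there was 1 higher and 9 were lower (all measured genes 3.13% and 27.3%), with a median of -0.11, and 7 uncalled genes changed sign: Dync1li2, Dync2h1, Dynll1, Dynlrb1, Dynlt1a, Kif2a and Kif9. With 10 counts or 1 count as the minimum, 12 of 60 and 12 of 64 motor genes were lower (all genes so counted 17.2% and 14.2%). The added ones were Kif4, Kif14, Kif15, Kif18a, Kif18b and Kif20b. All of these but Kif15 had at most 2 escalating counts. They passed a minimum of 10 only through the nonescalating library, so their calls carry no weight. With 1 count as the minimum the median log2 ratio of motor members was -0.0496. At 2-fold 0 were higher (all measured genes 2.01%), and at a threshold ratio of 5 to 4 there were 13 (20.2%). Without genes that overlap any annotated gene, 18 measured motor genes were left, with 2 lower (Kif5a and Kif21b) and 0 higher, (all measured genes 19.2% and 9.22%), because Kif5b, Kif5c, Kif1c, Kif11, Klc1, Klc2 and Dync1i1 drop out. Calls over the 5 partner lists, with 49, 23, 3, 19 and 33 measured genes, numbered 20 with TMM and 60 with total reads. They numbered 6 at 2-fold, 50 at 5 to 4, and 13 without overlapping genes. Over all measured genes 17.1% were lower and 9.33% higher with TMM, against 9.41% and 31.5% with total reads. The same shares were 8.93% and 2.01% at 2-fold, 25% and 20.2% at 5 to 4, and 19.2% and 9.22% without overlapping genes. The list counts are not read as a result about the partners. No paired analysis was possible because each group has 1 library. No library could be left out for the same reason. Depth limits the genes under 50 counts, where differences near 1.5-fold were not detectable.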

Other observations

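Some kinesins of cilia were near level in their sum, which leaves aside kinesin-2 (median log2 ratio 0.37) and dynein-2 (median -0.002). Kif6, Kif9, Kif19a, Kif24 and Kif27, which are known from ciliary function or assembly and were put together after their values were seen, summed to 372 counts in the escalating library (exact Poisson interval 335 to 412), against 264 in the nonescalating one (233 to 298), a ratio of 1.08 (0.918 to 1.27). Of 13 axonemal dynein heavy chains 3 were measured, Dnah1, Dnah2 and Dnah9, and 0 were called; their median log2 ratio was -0.29, or 0.07 with total reads.

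Within the kinesin-3 motors Kif1a, Kif1b and Kif1c, the reads were shared alike between the abundant pair. Kif1a made up 49.5% of their counts in the escalating library (48.9 to 50.2), against 52.0% in the nonescalating one (51.4 to 52.6), and Kif1c 0.702% of escalating (0.599 to 0.818) and 1.62% of nonescalating Kif1 counts (1.46 to 1.79). Over all motor genes the counts were 0.802% of escalating and 0.807% of nonescalating assigned reads. Dynein and dynactin made up 30.1% of motor counts in the escalating library (29.8 to 30.5), against 19.5% in the nonescalating one (19.2 to 19.8), beside the lower share of Kif5 reads. Since the motor counts include Kif5a, whose value led to the choice of these genes, these dynein and dynactin shares are a description.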
